A study of Mus musculus with 4 samples.

Results

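The type I interferon response genes are a set of 43 genes chosen by symbol, of which 42 were found among the 31054 features counted in each library. Mx2 was not analysed here. Transcripts were counted as unique molecular identifiers (UMIs, 1 per captured molecule), and these were summed over the cells of T, B, NK, macrophage/monocyte, neutrophil and tumour classes. The cells came from 4 single-cell libraries of mouse mammary tumours. T11-Apobec tumours grew in BALB/c females and KPB25Luv tumours in FVB/NJ females, each in mammary gland number 4. Treated mice were given 2 checkpoint-blocking antibodies biweekly, anti-PD1 (10 mg/kg) and anti-CTLA4 (100 µg), once tumours measured 5 mm across. These tumours were collected after 7 days. Untreated mice of each model gave the other library. Each group was 1 library, so no test was possible. Intervals are 95% intervals that cover counting error only, and the spread between animals is unknown.

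Type I interferons (interferon-alpha and interferon-beta) bind the receptor made of Ifnar1 and Ifnar2 on nearly every cell and activate a complex that holds Stat2 and Irf9. This complex binds the interferon-stimulated response element and switches on antiviral genes. Interferon-gamma, which T and NK cells secrete, acts through another receptor, and it induces many of the same genes, so the response genes do not by themselves name the interferon.

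Promoters are shown for 5 members because the response element is the feature that links the set, and because these 5 differ in their treated to untreated ratios. The core of the element (GAAA, any 2 bases, GAAA) was searched on both strands, overlaps allowed, in RefSeq windows of GRCm38.p6, and matches are in capitals. Each sequence is written 5′ to 3′ along the strand of its gene, and TTTC, any 2 bases, TTTC is the core on the other strand. The windows are Isg15 (chr4:156200769-156201068, minus strand), Ifit1 (chr19:34640639-34640938, plus strand), Ifit3 (chr19:34583279-34583578, plus strand), Bst2 (chr8:71537423-71537722, minus strand) and Slfn5 (chr11:82951852-82952151, plus strand).
Isg15: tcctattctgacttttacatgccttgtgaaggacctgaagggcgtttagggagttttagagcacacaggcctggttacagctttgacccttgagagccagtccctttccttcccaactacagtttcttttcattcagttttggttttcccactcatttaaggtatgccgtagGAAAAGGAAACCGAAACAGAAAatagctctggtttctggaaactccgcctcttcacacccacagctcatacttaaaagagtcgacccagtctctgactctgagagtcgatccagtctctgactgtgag
Ifit1: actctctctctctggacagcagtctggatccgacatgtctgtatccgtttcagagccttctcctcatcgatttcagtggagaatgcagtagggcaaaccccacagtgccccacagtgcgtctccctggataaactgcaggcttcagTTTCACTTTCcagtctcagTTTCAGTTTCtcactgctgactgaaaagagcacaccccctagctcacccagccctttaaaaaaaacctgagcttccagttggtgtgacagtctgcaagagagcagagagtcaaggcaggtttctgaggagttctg
Ifit3: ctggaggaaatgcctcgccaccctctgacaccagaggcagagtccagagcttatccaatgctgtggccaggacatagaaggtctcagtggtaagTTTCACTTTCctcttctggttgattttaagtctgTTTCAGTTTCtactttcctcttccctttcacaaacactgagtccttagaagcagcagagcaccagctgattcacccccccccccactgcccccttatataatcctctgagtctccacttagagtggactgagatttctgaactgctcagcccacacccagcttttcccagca
Bst2: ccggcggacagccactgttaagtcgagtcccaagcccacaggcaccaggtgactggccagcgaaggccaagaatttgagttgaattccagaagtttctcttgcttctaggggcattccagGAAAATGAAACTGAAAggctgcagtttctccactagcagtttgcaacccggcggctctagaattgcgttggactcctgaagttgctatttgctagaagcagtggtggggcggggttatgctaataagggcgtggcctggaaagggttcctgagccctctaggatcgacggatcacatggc
Slfn5: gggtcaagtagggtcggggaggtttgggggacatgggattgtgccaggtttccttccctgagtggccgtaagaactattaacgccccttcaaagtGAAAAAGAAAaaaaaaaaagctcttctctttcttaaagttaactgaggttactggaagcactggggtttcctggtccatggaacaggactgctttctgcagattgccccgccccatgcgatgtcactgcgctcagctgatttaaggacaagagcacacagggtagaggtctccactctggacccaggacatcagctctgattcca
Windows were found for 32 of the 43 genes, and 18 of these (56.2%) held the core. Over all 27025 genes with a window the share was 3.99%. The 3 overlapping matches of Isg15 began 78, 72 and 66 bases before the start site. A match describes the letters of the window and not a bound site.

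The libraries kept 5830 treated and 9469 untreated T11-Apobec cells, and 5051 treated and 6140 untreated KPB25Luv cells. Their median depth was 3968.5, 7192, 3748 and 9110 UMIs in that order. Pairs of libraries shared 30 to 96 cell barcodes. A cell joined a class when it had at least 2 UMIs of that class's markers and at least 2 times as many as of any other marker set. Levels are given in CPM, the UMIs of a gene per 1000000 UMIs of the class. A gene was called higher or lower at 1.5-fold if both libraries together held at least 10 of its UMIs. The share of all genes called by the same rule is given with the counts of each comparison. Classes were compared between treated and untreated where both libraries held at least 50 cells, which gave 10 comparisons. KPB25Luv NK cells (63 treated, 36 untreated) and KPB25Luv tumour cells (44 treated, 2345 untreated) are given by level only.

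Among the classes plotted by summed level, plasmacytoid dendritic cells stood high in every library. Their summed level was 6328 CPM in treated and 3081 CPM in untreated T11-Apobec, and 5904 and 3357 CPM in KPB25Luv. These values rest on 59, 18, 14 and 16 cells. Bst2, a membrane protein that tethers budding virus and a known surface marker of these cells in mice, reached 3114, 1788, 3062 and 1831 CPM in them, in the same order. No other member had as many UMIs in these cells, so their summed level leans on a gene that marks the class. Their rank without Bst2 was not tested. The lowest levels were in untreated tumour cells, at 450 CPM in T11-Apobec and 498 CPM in KPB25Luv. The NK level lay between 950 and 1130 CPM in the 4 libraries, and its intervals overlapped between all of them. Ifi27l2a, a small mitochondrial protein gene, gave 28.9% of all UMIs of the set and Bst2 8.28%, so a summed level leans on both.

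**Figure D1:**
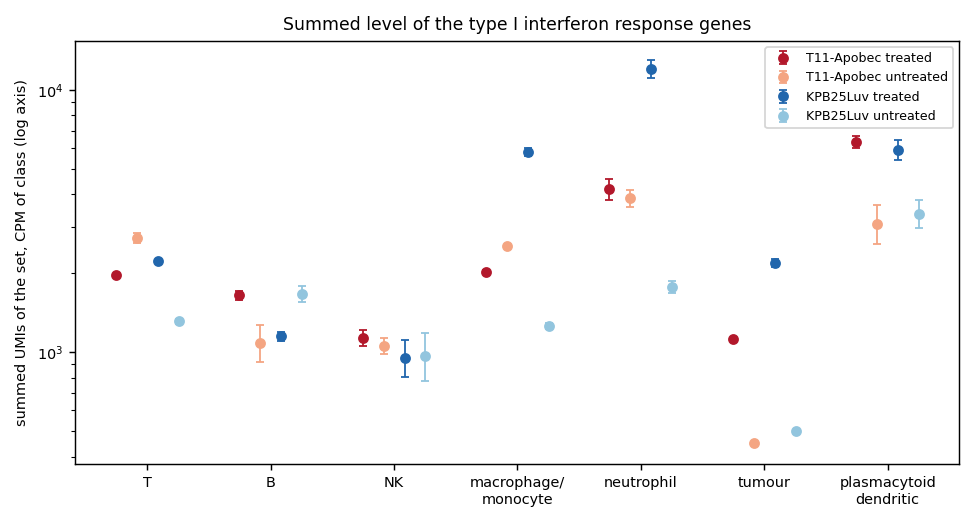
Summed level of the 42 genes (CPM of the class, log axis) by cell class and library. Points are libraries and bars are exact Poisson 95% intervals. The treated KPB25Luv point stands at 5795 CPM in macrophage/monocyte cells against 1259 CPM untreated, and at 12034 against 1770 CPM in neutrophils.

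Macrophage/monocyte cells of KPB25Luv showed the broadest difference. The summed level was 5795 CPM in 124 treated cells and 1259 CPM in 610 untreated cells, a log2 difference of 2.20 (2.14 to 2.26). Of 39 measured members, 37 were higher, where 17.6% of all genes were higher. None was lower, where 31.2% of all genes were lower. The median member differed by 2.55 and the median of all genes by -0.18. Isg15, a ubiquitin-like protein joined to other proteins, was at 562.5 CPM treated and 42.4 CPM untreated. Usp18, the protease that removes it and dampens receptor signalling, was at 61.3 and 2.84 CPM, the largest log2 ratio of the named members here at 4.39 (3.49 to 5.46). Irf7, the factor that amplifies interferon transcription, was at 312.7 and 20.1 CPM. Rtp4 was at 311.1 and 21.4 CPM. The RNA-binding Ifit1 had a log2 ratio of 4.25 and Ifit3 of 3.77, and Oasl2 of the oligoadenylate synthetase family 3.53. Rsad2 (viperin), which blocks replication of many viruses, was at 17.7 and 2.19 CPM. Mx1, a dynamin-like antiviral GTPase, rested on 6 and 12 UMIs, with a log2 ratio of 1.94 (0.18 to 3.41). Stat2 had 2.58, Bst2 2.75 and Ifi27l2a 1.67. Irf9 was not called, at 32.2 and 30.4 CPM. By role, 6 of 6 sensors, 3 of 3 genes of the ISG15 system, 3 of 3 measured IFIT genes, 6 of 7 OAS and PKR genes and 3 of 3 PARP-group genes were higher.

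The KPB25Luv macrophage/monocyte classes also differed in make-up. The summed level of their macrophage markers was 4805 CPM treated and 13758 CPM untreated. Cells with 0 to 1 UMI of the complement genes C1qa, C1qb and C1qc made up 71.0% of treated and 14.9% of untreated cells. Within these cells the summed log2 ratio was 1.79 (88 and 91 cells), and within cells with 2 or more it was 1.66 (36 and 519 cells). Both are below the 2.20 of the whole class. In T11-Apobec the same split gave 0.10 (112 and 105 cells) and -0.44 (638 and 2437 cells).

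KPB25Luv neutrophils were higher still, but the class was small and shallow. The summed level was 12034 CPM in 50 treated cells (median 902 UMIs) and 1770 CPM in 747 untreated cells (median 970 UMIs), a log2 ratio of 2.77 (2.63 to 2.90). Of 28 measured members, 28 were higher, where 23.7% of all genes were higher, and 40.2% of all genes were lower. The interval excluded 0 for 21 of the 28. The other members had under 10 UMIs in both libraries together. Herc6 (6 treated and 5 untreated UMIs), Oas3 (5 and 7), Ifih1 (4 and 6) and Stat2 (2 and 9) reached 10 only with their treated UMIs. Each remaining measured member held at least 10 UMIs in the untreated library. Isg15 stood at 3853 against 219.7 CPM, Rsad2 at 607.4 against 24.8 CPM and Rtp4 at 1556 against 109.3 CPM. Ifit1 had a log2 ratio of 4.55, Irf7 2.82, Bst2 2.59, Oasl2 1.83 and Ifi27l2a 0.67. Irf9 and Stat2 rested on 5 and 2 treated UMIs, and their intervals held 0. Neutrophil markers were at 22038 CPM treated and 51297 CPM untreated, and T cell markers at 626 and 357 CPM; their part in the result was not tested. With at least 500 genes per cell, 7 treated and 460 untreated cells remained and the log2 ratio was 1.46.

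T11-Apobec tumour cells carried more of the set after treatment. The summed level was 1120 CPM in 641 treated and 450 CPM in 5187 untreated cells, a log2 ratio of 1.32 (1.29 to 1.34). Of 39 members, 30 were higher, where 10.7% of all genes were higher, and 1 was lower, where 13.3% were lower. The median member differed by 1.09 and the median gene by -0.06. Bst2 was at 234.2 and 38.7 CPM, and Zbp1, a sensor of left-handed nucleic acid, at 94.5 and 13.0 CPM. Phf11b had the largest named log2 ratio, 3.38 (2.95 to 3.85), at 9.16 and 0.87 CPM; it has a close copy, Phf11d, and reads may be shared between them. In this class the T cell markers, all 4 detected in both libraries, summed to 28.1 CPM treated and 1.20 CPM untreated, and B cell markers to 4.22 and 0.78 CPM. Macrophage markers stood at 55.4 and 66.6 CPM. The part of these cells in the result was not tested. The signalling factors Stat2 (1.97), Irf9 (1.09) and Irf7 (0.86) were higher. Ifit3 was at 12.9 and 2.53 CPM, Mx1 at 2.23 and 0.53 CPM, and Oasl2, Ifi27l2a and Isg15 had log2 ratios of 1.34, 1.07 and 0.80. Ifit1 (-0.24) and Rsad2 (0.25) stayed within 1.5-fold, although the promoter of Ifit1 holds 2 matches of the core. Slfn5, of the Schlafen family, was the 1 lower member, at 0.60 and 2.56 CPM. Ifit3 with Ifit3b, and Ifit1 with Ifit1bl1, are near-identical or related copies within 1 cluster on chromosome 19, so how UMIs fall between them is uncertain.

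**Figure D2:**
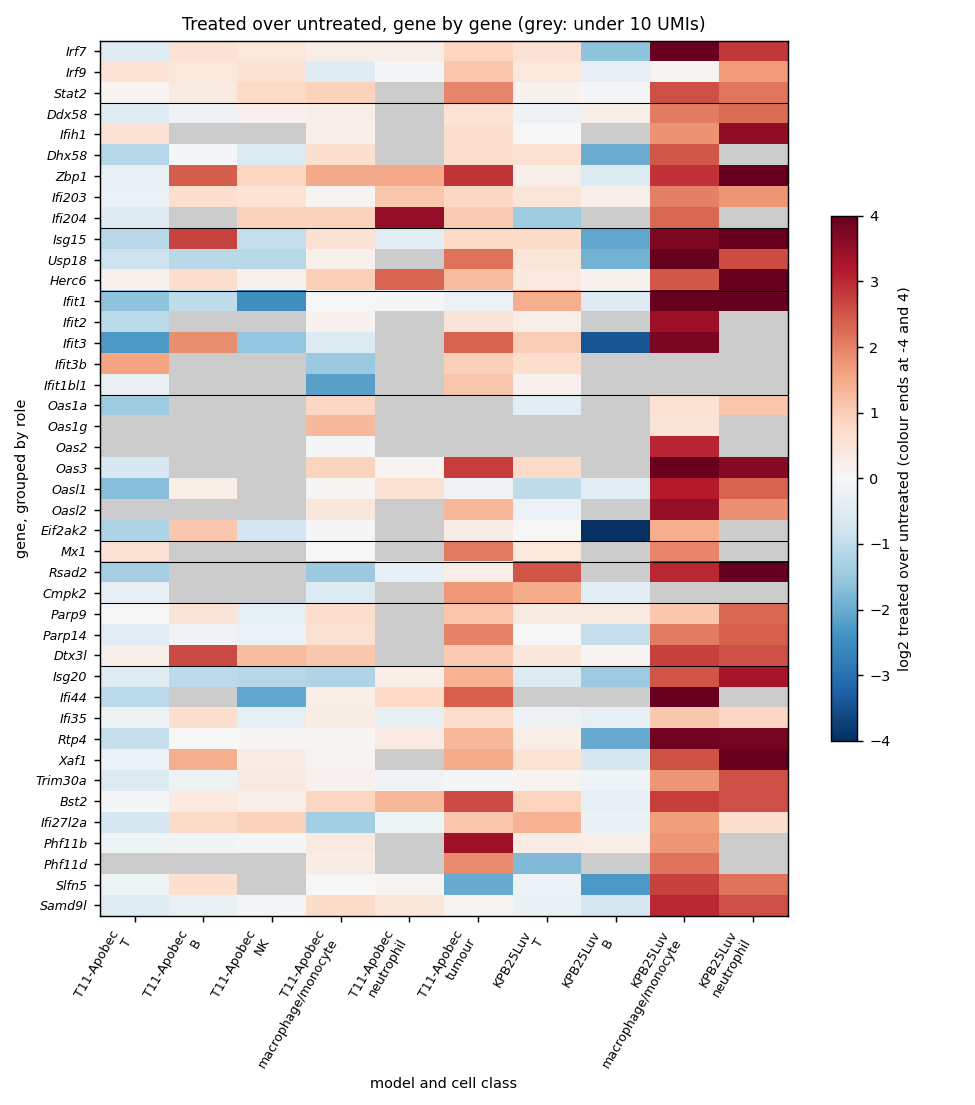
Log2 ratio of treated over untreated for each gene (rows, by role) in each model and class (columns). Red is higher with treatment, blue lower, and grey marks genes under 10 UMIs. Red fills the KPB25Luv macrophage/monocyte and neutrophil columns, with 37 of 39 and 28 of 28 measured genes called higher. Some genes in both columns reached 10 UMIs only with their treated UMIs.

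T cells of the models differed in direction, but the T11-Apobec difference was small and depended on the cells counted. In KPB25Luv the summed level was 2233 CPM in 3860 treated and 1309 CPM in 1121 untreated T cells, a log2 ratio of 0.77 (0.73 to 0.81). Of 39 members, 10 were higher, where 15.7% of all genes were, and 3 were lower, where 17.2% were. Ifi27l2a (1224 and 471.2 CPM) had by far the most UMIs of the set in these cells, and without Ifi27l2a and Bst2 the log2 ratio was 0.23, within 1.5-fold. Ifit1 had a log2 ratio of 1.45 (0.97 to 2.00), Ifit3 0.99, Bst2 0.88 and Isg15 0.73. Rsad2, at 2.5 (0.50 to 8.41), rested on 36 treated UMIs and 1 untreated UMI. Phf11d (-1.75) and Ifi204 (-1.42), a DNA sensor with a close copy in Ifi203, were lower. Irf7, Irf9, Stat2, Oasl2, Mx1 and Isg20 were not called. Epithelial markers were at 14 CPM in treated and 451 CPM in untreated KPB25Luv T cells, a level also met in the other untreated KPB25Luv immune classes. Among cells with no UMI of another marker set (2018 treated, 111 untreated) the summed ratio was 0.52, but Isg15 was at -0.63, Rsad2 at -0.25 and Ifi204 at 0.60, each opposite in sign to its value over all T cells.

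In T11-Apobec T cells the summed level was 1966 CPM in 2875 treated and 2733 CPM in 388 untreated cells, a log2 ratio of -0.48 (-0.54 to -0.41). That lies within 1.5-fold. Of 38 members, 14 were lower, where 20% of all genes were lower, and 2 were higher, where 13.0% were higher. The interval excluded 0 for 7 of the 14 and 0 of the 2. Of those 2, Ifit3b had 26 treated and 0 untreated UMIs, so it was measured only through its treated UMIs. Ifit3 (6.26 and 30.2 CPM), Ifit1 (15.9 and 48.0 CPM), Isg15 (38.7 and 82.3 CPM) and Ifi27l2a (731.7 and 1161 CPM) were lower. Rsad2, with 3 untreated UMIs, had an interval that held 0. Irf7, Irf9, Stat2, Mx1 and Bst2 were not called. Median depth was 3554 UMIs treated and 1537.5 untreated, and after thinning each cell to 1000 UMIs the summed ratio was -0.17. Among cells with no UMI of another marker set it was -0.07 (-0.17 to 0.03; 1037 and 186 cells).

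The directions were the same within CD8 T cells, the cytotoxic T cells. Their summed level was 1464 CPM treated and 2510 CPM untreated in T11-Apobec (log2 ratio -0.78, 1438 and 146 cells). It was 1820 and 1043 CPM in KPB25Luv (0.80, 1769 and 570 cells). Median depth of the T11-Apobec CD8 cells was 4675 UMIs treated and 1717.5 untreated, and its part in the ratio was not tested. T11-Apobec CD4 cells without Foxp3 had 2669 and 1658 CPM, but only 463 and 26 cells. T11-Apobec T cells with Foxp3 had 3126 and 5994 CPM (125 and 23 cells). KPB25Luv CD4 cells without Foxp3 had 2807 and 2028 CPM, a log2 ratio of 0.47 (671 and 118 cells), which is within 1.5-fold. KPB25Luv regulatory T cells, marked by Foxp3, had 3208 and 1816 CPM (0.82).

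B cells also differed in direction between models. In KPB25Luv the summed level was 1150 CPM in 635 treated and 1669 CPM in 168 untreated B cells, a log2 ratio of -0.54 (-0.66 to -0.42). Of 28 members, 12 were lower, where 21.7% of all genes were lower, and 0 were higher, where 17.8% were higher. Isg15 was at 19.2 and 80.7 CPM, Irf7 at 19.2 and 57.6 CPM, Samd9l at 55.3 and 87.6 CPM, and Ifit3 at 6.56 and 73.8 CPM. Only 4 of 165 untreated B cells held 2 or more IFIT UMIs after thinning. Irf9, Stat2, Ifit1, Bst2 and Ifi27l2a were not called. In T11-Apobec the summed level was 1651 CPM in 767 treated and 1084 CPM in 145 untreated B cells, a log2 ratio of 0.60 (0.37 to 0.86). Of 27 members, 11 were higher, where 22.7% of all genes were higher, and 3 were lower, where 24.0% were lower. The interval excluded 0 for 3 of the 11, namely Zbp1 (2.43), Ifi27l2a (0.75) and Ifi203 (0.67). The untreated class held 147 UMIs of the set, and its Isg15 count was 0. Set against a floor of 3 counts, the Isg15 ratio was 1.08-fold, and its interval held 0. The median member ratio was 0.43, and 0.11 with members at 0 in either library set against that floor.

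The remaining T11-Apobec classes differed less in summed level. In NK cells it was 1130 CPM treated and 1055 CPM untreated (0.10, -0.04 to 0.24). Of 27 members, 5 were higher (20.5% of all genes) and 7 lower (14.5% of all genes), among them Ifit1 with 2 and 15 UMIs. The interval excluded 0 for 3 of the 5 and 3 of the 7. Dtx3l (1.23), a ubiquitin ligase partner of Parp9, and Zbp1 (0.86) were higher, and Isg20 (-1.13), an exonuclease, was lower. In macrophage/monocyte cells the summed level was 2028 CPM in 750 treated and 2536 CPM in 2542 untreated cells (-0.32, -0.35 to -0.29). T cell markers in this class were at 68.3 and 4.56 CPM and mesenchymal markers at 19.7 and 99.8 CPM; their part in the result was not tested. Of 42 members, 13 were higher, where 10.7% of all genes were, and 5 were lower, where 12.8% were. Zbp1 (138.8 and 48.4 CPM), Dtx3l, Stat2 and Bst2 (210.4 and 116.2 CPM) were higher. Ifi27l2a (575.4 and 1463 CPM), Rsad2 and Isg20 were lower, and the summed ratio without Ifi27l2a and Bst2 was 0.38. Isg15 (0.57), Oasl2 (0.44), Irf7 (0.26), Ifit1 (-0.01), Mx1 (-0.01), Irf9 (-0.49) and Ifit3 (-0.54) stayed within 1.5-fold. Rsad2 was at 0.10 in cells with no UMI of another marker set, against -1.49 over all cells. In neutrophils (51 and 181 cells) the summed level was 4172 and 3866 CPM (0.11, -0.06 to 0.28). Of 20 members, 6 were higher, where 35.1% of all genes were, and 0 lower, where 17.4% were. Bst2, called there at 1.33, was at -0.29 after thinning, which left 17 and 25 cells. In neutrophils Isg15 (-0.45), Irf7 (0.22), Irf9 (-0.06), Ifit1 (-0.06), Rsad2 (-0.34) and Ifi27l2a (-0.18) stayed within 1.5-fold.

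Ifnar1, a chain of the type I receptor, was within 1.5-fold in T11-Apobec tumour cells (log2 ratio 0.18) and in macrophage/monocyte cells of T11-Apobec (-0.28) and KPB25Luv (0.07). Ifnar2, the other chain, had log2 ratios of 0.21 and 0.24 in the first and last of these classes. In T11-Apobec macrophage/monocyte cells it was lower, at 130.4 CPM treated and 199.7 CPM untreated (-0.61, -0.73 to -0.50). The list of 18 interferon-gamma-leaning genes, such as Cxcl9, Ciita and the Gbp family, had all 18 higher in T11-Apobec tumour cells (median 3.87) and all 18 higher in T11-Apobec macrophage/monocyte cells (median 2.56), where 10.7% of all genes were higher in each class. In KPB25Luv 15 of 16 were higher in macrophage/monocyte cells (median 3.11; 17.6% of all genes) and 11 of 11 in neutrophils (median 5.08; 23.7% of all genes). In T11-Apobec tumour cells 10.7% of all genes were higher and 13.3% lower, and in KPB25Luv macrophage/monocyte cells 17.6% and 31.2%. Beside these shares, of the 14 receptor and signalling genes, 5 were higher and 0 lower in T11-Apobec tumour cells, and 6 higher and 1 lower in KPB25Luv macrophage/monocyte cells. Of the genes upstream of interferon, such as Tlr7 and Mavs, 1 of 11 measured was higher and 0 lower in T11-Apobec tumour cells, and 6 of 12 were higher and 3 lower in KPB25Luv macrophage/monocyte cells. In the 4 classes named for the interferon-gamma-leaning list the medians of the type I set were 1.09, 0.22, 2.55 and 2.57.

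**Figure D3:**
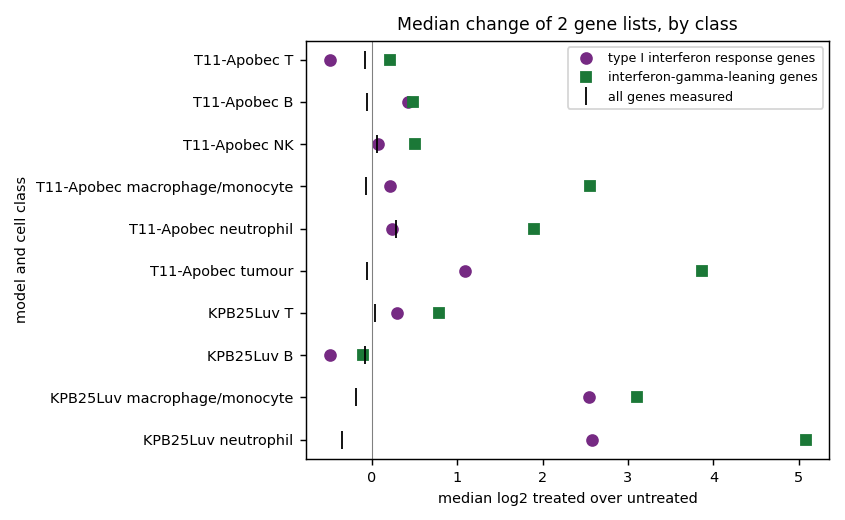
Median log2 ratio of treated over untreated for the type I set (circles), the interferon-gamma-leaning list (squares) and all genes (bars), by model and class. In T11-Apobec tumour cells the squares stand at 3.87 and the circles at 1.09.

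Ifnb1 and the interferon-alpha genes were near the limit of detection. Ifnb1 had 2 and 4 UMIs in treated and untreated T11-Apobec and 0 in both KPB25Luv libraries, where 0 allows up to 0.0594% and 0.0489% of cells with a UMI. The 14 interferon-alpha genes together had 1 UMI, in untreated T11-Apobec. The other type I genes Ifne, Ifnk and Ifnz together had 89 UMIs in 89 cells of untreated KPB25Luv, 67 of them in tumour cells, and 17 in treated KPB25Luv, 12 of them in T cells. In T11-Apobec they had 2 treated UMIs and 1 untreated UMI. Ifng had 1466 and 135 UMIs in T11-Apobec and 886 and 111 in KPB25Luv, of which T cells held 1370, 67, 843 and 78. These raw counts depend in part on the size of the T cell class, which was larger in both treated libraries. In T11-Apobec T cells Ifng was at 105.9 CPM treated and 91.9 CPM untreated, a log2 ratio of 0.19 (-0.15 to 0.58). In KPB25Luv T cells it was at 39.4 and 15.6 CPM, a log2 ratio of 1.32.

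Single cells showed how widely a difference was spread. After thinning to 1000 UMIs, 47.4% of treated and 4.92% of untreated KPB25Luv macrophage/monocyte cells held at least 5 UMIs of the set (84.7% and 61.8% without thinning). In T11-Apobec tumour cells 40.2% of treated and 66.3% of untreated cells held none. T cells with at least 5 were 17.4% and 6.20% in KPB25Luv and 15% and 18.6% in T11-Apobec.

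**Figure D4:**
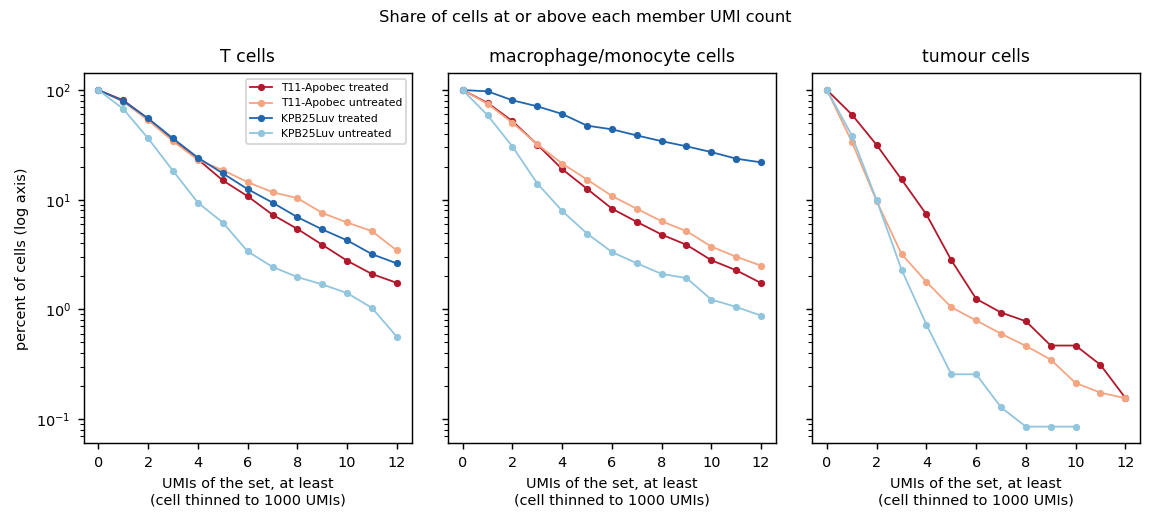
Percent of cells (log axis) holding at least the number of UMIs of the set on the horizontal axis, each cell thinned to 1000 UMIs, by library, in 3 classes. Treated KPB25Luv macrophage/monocyte cells lie above the other libraries, with 47.4% of cells at 5 or more UMIs.

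A few cells held IFIT transcripts at a high level. In treated KPB25Luv T cells, 51 of 3728 thinned cells held 2 or more IFIT UMIs, and the other members stood at 11726 CPM in them and 2505 CPM in the rest. In untreated T11-Apobec tumour cells these were 27 of 5159 cells, with the other members 10.9-fold higher, and in untreated T11-Apobec macrophage/monocyte cells 16 of 2512, with 7.1-fold. The treated T11-Apobec library had 4 of 640 tumour cells and 3 of 747 macrophage/monocyte cells. Among T cells there were 9 of 290 in untreated T11-Apobec and 3 of 1064 in untreated KPB25Luv. Treated T11-Apobec T cells had 18 of 2804, with 3.9-fold. The cells were chosen by members of the same set, so these folds are a description.

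Tumour cells of T11-Apobec were also sorted by interferon-gamma-leaning UMIs per thinned cell. Cells with 2 or more made up 269 of 640 treated (42%) and 137 of 5159 untreated cells. Among these cells the 12 measured low-baseline members, which include Ifit1, Isg15, Rsad2 and Irf7, stood at 266 CPM (254 to 279) treated and 881 CPM (831 to 933) untreated. Ifit1 was at 24.9 and 186.3 CPM, Irf7 at 15.7 and 65.2 CPM, and Isg15 at 112.8 and 322.8 CPM. Bst2 (340.6 and 159.5 CPM) and Zbp1 (155.1 and 65.9 CPM) were higher in the treated cells. In all, 3 of 37 measured members were higher, where 13.1% of all genes in these cells were higher, and 19 were lower, where 19.6% were lower. The median member ratio was -0.66 and the median of all genes -0.11. The cells were not matched in the sorting list itself, whose level was 3747 CPM treated and 2158 CPM untreated. They were 42% of treated and 2.66% of untreated thinned tumour cells, with median depths of 23667 and 9049 UMIs. The untreated cells were thus a smaller upper share of their library. What this choice of cells adds to the ratios was not tested. Cells with no such UMI had low-baseline levels of 46.3 CPM treated and 51.6 CPM untreated. All measured members together were at 572 CPM treated and 388 CPM untreated in these cells. In the cells with 2 or more they were at 1758 and 2333 CPM.

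**Figure D5:**
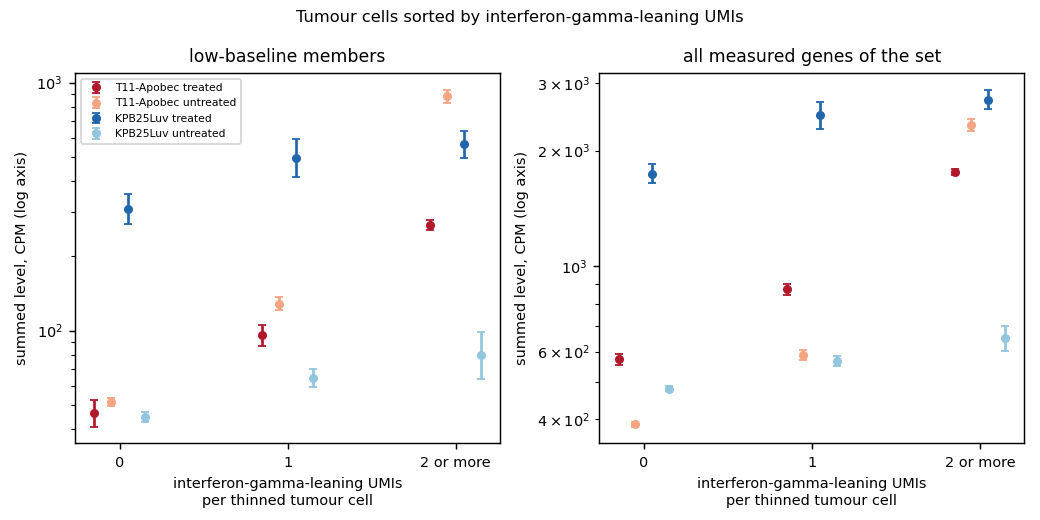
Summed level (CPM, log axis) of the low-baseline members and of all 42 genes in tumour cells, by interferon-gamma-leaning UMIs per thinned cell. Points are libraries and bars exact Poisson 95% intervals. At 2 or more UMIs the low-baseline level is 266 CPM in treated and 881 CPM in untreated T11-Apobec. For all 42 genes these levels are 1758 and 2333 CPM. The treated KPB25Luv points rest on 22, 9 and 13 cells from left to right.

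The models were compared within T and macrophage/monocyte cells of each arm. Of 35 members measured in all 4 pairs, 0 were at least 2-fold higher in T11-Apobec in every pair, where 0.476% of all genes were. In the other direction 1 member, Oas1a, was higher in KPB25Luv, where 0.476% of all genes were. Oas1a was named after its values were seen. Its level in untreated macrophage/monocyte cells was 4.18 CPM in T11-Apobec and 43.3 CPM in KPB25Luv. Oas1a and Oas1g are near-identical neighbours on chromosome 5, and strain and tumour model cannot be told apart here.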

How the data were processed

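Single-cell RNA was measured in 4 libraries made with the 10x 3' v2 kit, 1 per group. The deposited files hold UMI counts for each gene in each barcode, not normalised. Per the file headers they came from Cell Ranger 3.0.2, and the submitters' processing notes name mm10. Barcodes with under 200 genes or over 10% mitochondrial UMIs were removed. Doublets were scored with Scrublet in scanpy 1.11.5; its own threshold marked 1 and 5 barcodes in the treated libraries, so the highest scores were removed at 0.8% per 1000 barcodes. Classes came from marker UMIs and were not clustered. NK cells held no Cd3d or Cd3e and tumour cells no Ptprc. Ratios used 0.5 added counts and exact conditional intervals from scipy 1.17.1, run with pandas 2.3.3. The scripts were tested on simulated data.

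The members, lists, markers and rules were chosen with earlier results of these data known. By rule, each comparison was to name the 3 highest and 3 lowest members by the interval end nearest to 0 with at least 50 UMIs. Isg15, Irf7, Irf9, Stat2, Ifit1, Ifit3, Rsad2, Oasl2, Mx1, Bst2 and Ifi27l2a were also to be named where measured. Not all of them are named for T11-Apobec B and NK cells. Other named genes were chosen after their values were seen. Alternatives changed scaling, totals, thinning, doublets, filters, marker minimum, gene minimum and fold. A pair of alternatives, cells without other markers and the C1q split, was added after seeing the data, as was the comparison between models. Some results were left out and are not reported here.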

Additional observations from a re-analysis of the deposited data

How the results depend on the processing

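Of 88 summed levels under alternatives, 75 kept their direction and their side of 1.5-fold. Of 210 counts of members, 171 stayed within 1.5 times, and among 944 values of named members 5 that had been called changed sign: Bst2 in T11-Apobec neutrophils (-0.29, thinned) and, among cells with no UMI of another marker set, Rsad2 in T11-Apobec macrophage/monocyte cells (0.10), and Ifi204 (0.60), Isg15 (-0.63) and Rsad2 (-0.25) in KPB25Luv T cells. The cause was not tested. With ratios centred on the median of all genes, the summed log2 ratio was -0.39 in T11-Apobec T, -0.25 in T11-Apobec macrophage/monocyte, -0.18 in T11-Apobec neutrophil, 1.38 in T11-Apobec tumour, 0.73 in KPB25Luv T, 2.38 in KPB25Luv macrophage/monocyte and 3.11 in KPB25Luv neutrophil. The members called were 4 higher (from 2) in T11-Apobec T and 3 lower (from 0) in T11-Apobec neutrophil. Without mitochondrial and ribosomal protein genes in the totals, the summed log2 ratio was -0.07 in T11-Apobec NK, -0.37 in T11-Apobec macrophage/monocyte, 0.28 in T11-Apobec neutrophil, 1.36 in T11-Apobec tumour, 0.68 in KPB25Luv T and 2.09 in KPB25Luv macrophage/monocyte. With cells thinned to 1000 UMIs, the summed log2 ratio was -0.17 in T11-Apobec T, -0.11 in T11-Apobec macrophage/monocyte, 0.61 in T11-Apobec neutrophil, 1.2 in T11-Apobec tumour, 0.83 in KPB25Luv T, 2.36 in KPB25Luv macrophage/monocyte and 3.0 in KPB25Luv neutrophil. The members called were 4 higher (from 2) in T11-Apobec T, 9 lower (from 14) in T11-Apobec T, 2 higher (from 6) in T11-Apobec neutrophil, 3 lower (from 1) in T11-Apobec tumour, 1 lower (from 3) in KPB25Luv T, 4 higher (from 0) in KPB25Luv B, 24 higher (from 37) in KPB25Luv macrophage/monocyte and 15 higher (from 28) in KPB25Luv neutrophil. Thinning leaves fewer UMIs per gene, so fewer members were measured. For every alternative, the number measured and the share of all genes called are not given here. Counts of members under alternatives therefore show only how the calls depend on the settings. With likely doublets kept, the summed log2 ratio was -0.25 in T11-Apobec macrophage/monocyte and 0.37 in T11-Apobec neutrophil. The members called were 11 higher (from 6) in T11-Apobec neutrophil. With at least 500 genes per cell, which left 13 and 22 T11-Apobec neutrophils and 7 and 460 of KPB25Luv, the summed log2 ratio was -0.12 in T11-Apobec neutrophil and 1.46 in KPB25Luv neutrophil. The members called were 2 higher (from 6) in T11-Apobec neutrophil, 2 lower (from 0) in T11-Apobec neutrophil and 14 higher (from 28) in KPB25Luv neutrophil. With the marker minimum raised to 4 UMIs, the summed log2 ratio was -0.39 in T11-Apobec T and 2.13 in KPB25Luv macrophage/monocyte. The members called were 5 lower (from 3) in T11-Apobec B and 1 lower (from 0) in T11-Apobec neutrophil. Without Ifi27l2a and Bst2, the summed log2 ratio was -0.37 in T11-Apobec T, 0.38 in T11-Apobec macrophage/monocyte, 1.11 in T11-Apobec tumour, 0.23 in KPB25Luv T, -0.70 in KPB25Luv B, 2.52 in KPB25Luv macrophage/monocyte and 3.19 in KPB25Luv neutrophil. Among cells with no UMI of another marker set, the summed log2 ratio was -0.07 in T11-Apobec T, 0.93 in T11-Apobec B, -0.09 in T11-Apobec NK, -0.21 in T11-Apobec macrophage/monocyte and 0.52 in KPB25Luv T. The members called were 5 higher (from 2) in T11-Apobec T, 6 lower (from 14) in T11-Apobec T, 2 lower (from 5) in T11-Apobec macrophage/monocyte and 7 lower (from 3) in KPB25Luv T. In cells with 0 to 1 C1q UMIs, the summed log2 ratio was 0.10 in T11-Apobec macrophage/monocyte and 1.79 in KPB25Luv macrophage/monocyte. In cells with 2 or more C1q UMIs, the summed log2 ratio was -0.44 in T11-Apobec macrophage/monocyte. With at least 50 UMIs per gene, the members called were 1 higher (from 2) in T11-Apobec T, 4 higher (from 11) in T11-Apobec B, 0 lower (from 3) in T11-Apobec B, 2 higher (from 5) in T11-Apobec NK, 1 lower (from 7) in T11-Apobec NK, 3 lower (from 5) in T11-Apobec macrophage/monocyte, 0 higher (from 6) in T11-Apobec neutrophil, 5 lower (from 12) in KPB25Luv B and 9 higher (from 28) in KPB25Luv neutrophil. At 2-fold, the members called were 1 higher (from 2) in T11-Apobec T, 6 higher (from 11) in T11-Apobec B, 1 higher (from 5) in T11-Apobec NK, 3 higher (from 13) in T11-Apobec macrophage/monocyte and 4 higher (from 10) in KPB25Luv T. With no UMI minimum per gene, the members called were 13 lower (from 3) in T11-Apobec B, 14 lower (from 7) in T11-Apobec NK, 16 higher (from 6) in T11-Apobec neutrophil, 5 lower (from 0) in T11-Apobec neutrophil and 25 lower (from 12) in KPB25Luv B. Without a minimum, the 0.5 added counts and unequal class totals alone can call an undetected gene. The 25 include Oas1g and Ifi44, with 0 UMIs in both libraries, and Oas2, with 1 treated and 0 untreated UMIs. Cells with no UMI of another marker set were taken in all 10 comparisons, an alternative added after seeing the data. It kept cells of lower median depth, and in 5 comparisons fewer than 50 cells in a library. Those 5 gave 0.57 in T11-Apobec neutrophils (14 and 85 cells), 2.60 in T11-Apobec tumour (5 and 38), -1.03 in KPB25Luv B (275 and 19), 2.45 in KPB25Luv macrophage/monocyte (38 and 43) and 3.3 in KPB25Luv neutrophils (25 and 212). The C1q split was also added after seeing the data. No paired analysis was possible because each group was 1 library. With 1 library per group, the spread between animals, dissociation and library preparation cannot be told apart from treatment.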
